A study of Mus musculus with 7 samples.

Results

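The 9 genes described here are the phospholipid flippase genes Atp8a1, Atp8a2, Atp8b1, Atp8b2, Atp8b4, Atp9a, Atp11a and Atp11b together with Tmem30a, the gene of their partner subunit. They were picked by gene name with the contrast between PRA transgenic and wild-type glands already known, and Atp8b1 gives the set its name. Of the 37074 gene names in the files these are 9, represented by 24 of 56605 probes. Of these, 20 were among the 34288 probes that entered the comparison of genotypes, which asked for a gland signal well above background throughout at least 1 of the genotypes, and each of the 9 genes had at least 1 such probe. Because the contrast chose the genes, its values for them are descriptive and carry no test.

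RNA came from the mammary glands of nulliparous FVB mice aged 20 to 25 weeks and taken at diestrus, 3 wild-type and 4 PRA transgenic, with 1 animal per array. PRA transgenics carry 2 transgenes, a GAL-4 transactivator under the cytomegalovirus (CMV) promoter and the A form of the progesterone receptor (PR-A) behind GAL-4 binding sites, so expression of PR-A is not limited to the mammary epithelium by its promoter. Wild-type mice were littermates. A single abdominal gland per animal was used whole after its lymph nodes had been cut out, and each gland was labeled with Cy5 and hybridized against Universal Mouse Reference RNA, a Cy3-labeled mix from 11 cell lines. All values below are log2 ratios of the gland to that reference unless another scale is named, and a difference is always PRA transgenic minus wild-type.

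Flippases of this family are P-type ATPases that use ATP to carry phosphatidylserine, phosphatidylethanolamine and, for some members, phosphatidylcholine from the outer to the cytosolic leaflet of membranes. They keep phosphatidylserine off the cell surface, where it would otherwise act as a signal for clotting and for removal by phagocytes, and they help vesicles to bud. Most need the subunit Tmem30a (CDC50A) to leave the endoplasmic reticulum, whereas the Atp9 members do not. ATP8B1 is the gene mutated in a familial form of intrahepatic cholestasis, and its protein sits in the apical membrane of hepatocytes and other epithelial cells.

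All 7 arrays lay on 1 slide, wild-type in row 1 and PRA transgenic in row 2, so the row on the slide cannot be told apart from genotype. Of all probes, 62.7% to 66.2% were well above background in Cy5 on wild-type arrays and 56.6% to 60.2% on PRA transgenic arrays, and in Cy3, the same RNA throughout, 53.2% to 54.0% and 47.2% to 50.6%. The weakest Cy5 signal that counted as well above background was 8.75 to 9.89 intensity units on wild-type arrays and 12.1 to 15.9 on PRA transgenic arrays. No spot was saturated. Luminal epithelial, basal epithelial and white adipocyte markers (6 genes each) were well above background on all 7 arrays, and the mean log2 ratio of each of the 10 marker lists examined overlapped between the genotypes. Wild-type replicate 1 had the highest T cell list (1.76 against -0.43 to 0.15 on the other arrays), and wild-type replicates 1 and 3 and PRA transgenic replicate 4 were high in skeletal muscle markers (3.20, 3.87 and 4.16, against -0.35 to 0.14 elsewhere). In whole glands, fewer cells of a type and less RNA per cell cannot be told apart.

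Most flippase probes lay close together in the 2 genotypes, and the most negative difference was that of Atp8b1. Of the 20 probes compared, 13 had a positive and 7 a negative difference, with a median of 0.07 beside 0.02 over all probes compared and a median size of 0.14 beside 0.17. By the threshold of an unadjusted p under 0.05 and a 1.5-fold change, 3 of the 20 were past it, 1 probe of Atp9a higher and 1 probe each of Atp8b1 and Atp11b lower, where 4.53% of all 34288 probes were past it (1.94% higher and 2.59% lower). Genotypes did not overlap for 2 probes that were higher (1 each of Atp8a1 and Atp9a) and 1 that was lower (Atp8b1), and 9.95% of all probes separated in this way in either direction (5.42% higher and 4.53% lower). None of the 20 had an adjusted p under 0.05, which 0.0117% of all probes had, and 4 had an unadjusted p under 0.05, beside 9.02%. Since the genes were picked on this contrast, nothing is read from these shares.

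**Figure D1:**
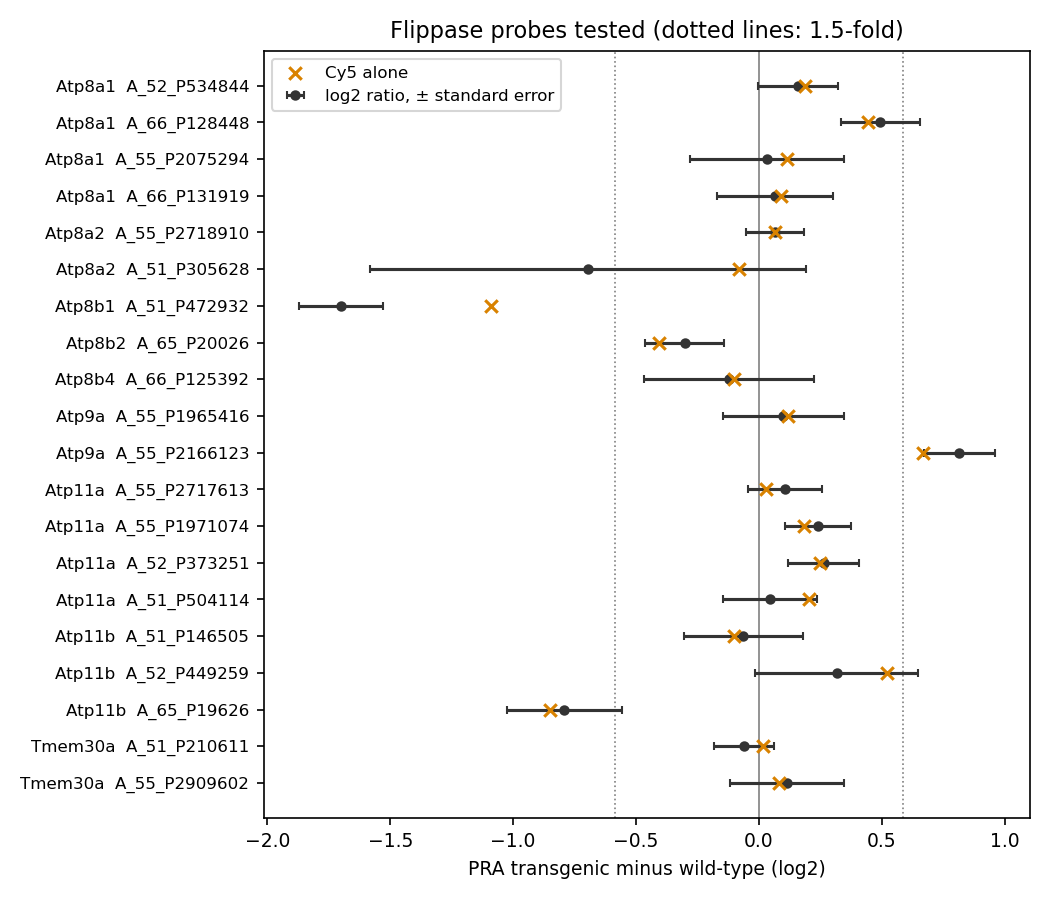
Difference between PRA transgenic (n = 4) and wild-type (n = 3) glands for the 20 flippase probes compared, in log2 units. Black points with bars are the difference of the log2 ratios with its standard error, orange crosses the difference in Cy5 alone, and dotted lines mark a 1.5-fold change. The point of Atp8b1 is at -1.70 and its cross at -1.09, while most other probes lie between the dotted lines.

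Atp8b1, the apical membrane flippase, had 2 probes. For the brighter, A_51_P472932 (chr18:64689357-64689416 of mm9, minus strand), the log2 ratios were 3.62, 3.67 and 3.36 in the wild-type and 1.81, 1.81, 1.58 and 2.19 in the PRA transgenic glands. Every wild-type gland was above every transgenic gland, with more than 1 log2 unit between the closest pair. The means were 3.55 ± 0.16 (SD, n = 3) and 1.85 ± 0.25 (SD, n = 4), a difference of -1.70 (standard error 0.17), or 3.25-fold. The gland signal itself was modest, at 52.4, 61.2 and 40.1 Cy5 intensity units in wild-type and 23.5, 17.2, 17.4 and 25.4 in PRA transgenic glands, and on PRA transgenic replicate 3 it was not well above background. The probe therefore entered the comparison through the wild-type glands only, the genotype in which it was higher.

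That difference was larger in the ratio than in Cy5 alone. On none of the 7 arrays was Cy3 well above background at this probe. Taken relative to the 75th percentile of Cy3 on each array, the Cy3 log2 signal was 0.62 higher on the PRA transgenic arrays. The reference RNA was the same throughout. In Cy5 alone, taken relative to the 75th percentile of each array, the values were -2.58, -2.53 and -2.84 in wild-type and -3.57, -3.95, -3.95 and -3.50 in PRA transgenic glands. The genotypes were again apart, by a smaller mean difference of -1.09. With another background correction (normexp with an offset of 50, then loess within each array) the difference in log2 ratio was -0.54. That offset is added to both channels, so it makes ratios of signals this dim smaller by construction. The part of the reference channel in the result was not tested.

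A second Atp8b1 probe, A_51_P494297, lies upstream in the transcript and spans a junction (chr18:64705009-64705653). It was too dim to be compared, being well above background in Cy5 on 1 wild-type array and no PRA transgenic array. Its log2 ratios were 0.91, 1.41 and 0.94 in wild-type and -0.60, -0.50, -0.44 and 0.21 in PRA transgenic glands, and did not overlap. The Cy5 signals behind them were 7.9, 12.5 and 7.5 against 4.1, 3.3, 4.0 and 5.9 intensity units, which lie around or under the weakest signal counted as well above background, so no fold is given. Cy3 was well above background on no array, and its log2 signal was 0.54 higher on the transgenic arrays, so that nothing is drawn from this probe.

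**Figure D2:**
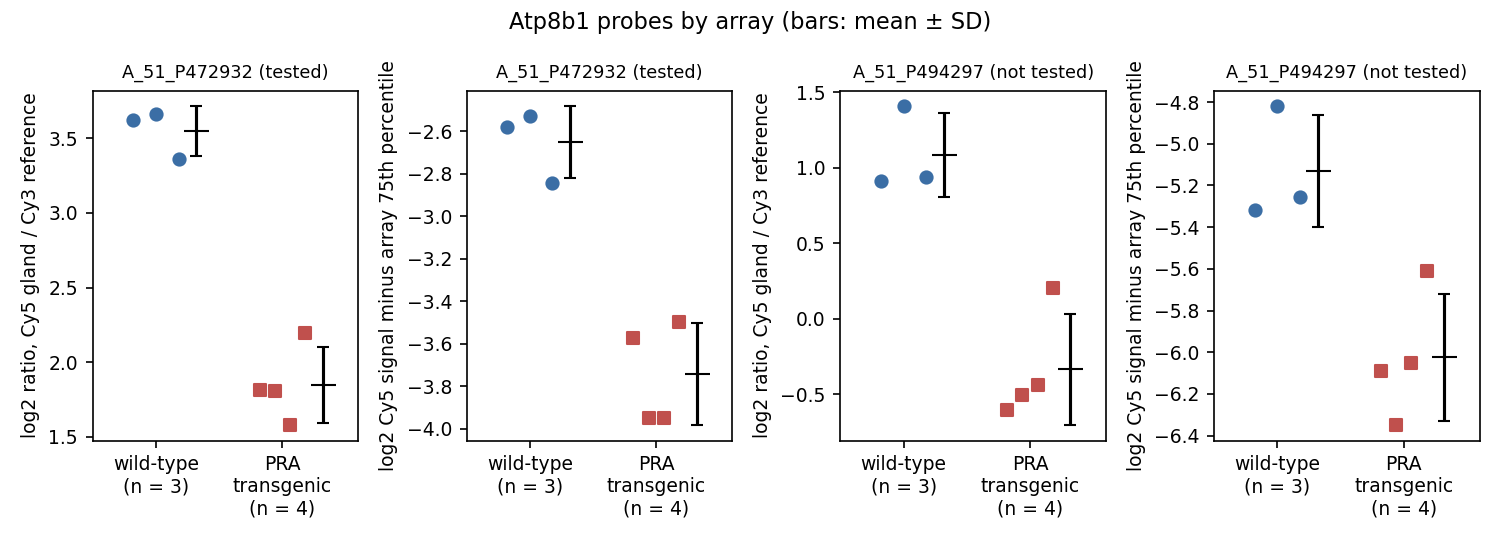
Atp8b1 in each gland, as the log2 ratio to the reference and as log2 Cy5 signal minus the array's 75th percentile, for the compared probe A_51_P472932 and the dimmer A_51_P494297. Blue circles are wild-type (n = 3) and red squares PRA transgenic (n = 4) glands, bars are mean ± SD, and each panel has its own scale. The genotypes are apart at A_51_P472932, and the values of A_51_P494297 are mostly not well above background.

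Differences were smaller at the compared probes of Atp8b2 and Atp8b4. Atp8b2, a plasma membrane flippase, was measured with A_65_P20026 (chr3:89743901-89743960) at -0.86, -0.97 and -1.39 in wild-type and -1.35, -1.50, -1.45 and -1.21 in PRA transgenic glands. The transgenic values reached into the wild-type range on the side of wild-type replicate 3, and the difference was -0.30 (standard error 0.16). Its second probe, A_55_P2934452, was well above background in Cy5 on 1 array of 7, a PRA transgenic one, and was not compared. Atp8b4, a member known from blood and immune cells, gave -0.25, -1.41 and -1.34 against -1.06, -1.34, -1.51 and -0.57 with A_66_P125392 (chr2:126151030-126151089). A high wild-type replicate 1 and a fairly high PRA transgenic replicate 4 left the genotypes overlapping, with a difference of -0.12 (standard error 0.35) that became 0.26 without wild-type replicate 1.

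Wild-type replicate 1 was also the array with the highest lymphocyte lists. Its B cell list (4 genes, 3 of them well above background on every array, the exception being Cd79a) stood at 0.92, the other wild-type glands at -1.35 and -1.67 and the transgenic glands between -1.67 and -1.09. Its T cell list (5 of 5 genes well above background on every array) stood at 1.76, as given above. The second Atp8b4 probe, A_51_P190639, was well above background on that array alone, where its log2 ratio was 0.26 beside -1.88 to -0.73 on the other 6. PRA transgenic replicate 4, next highest for Atp8b4, was near the low end of both lists, at -1.62 for B cells and -0.43 for T cells. The macrophage list (5 of 5 genes well above background on every array) was highest in the same glands as Atp8b4, at 3.33 in PRA transgenic replicate 4 and 2.93 in wild-type replicate 1, with the other 5 glands between 2.47 and 2.84. The part of immune cell content in the Atp8b4 values was not tested.

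**Figure D3:**
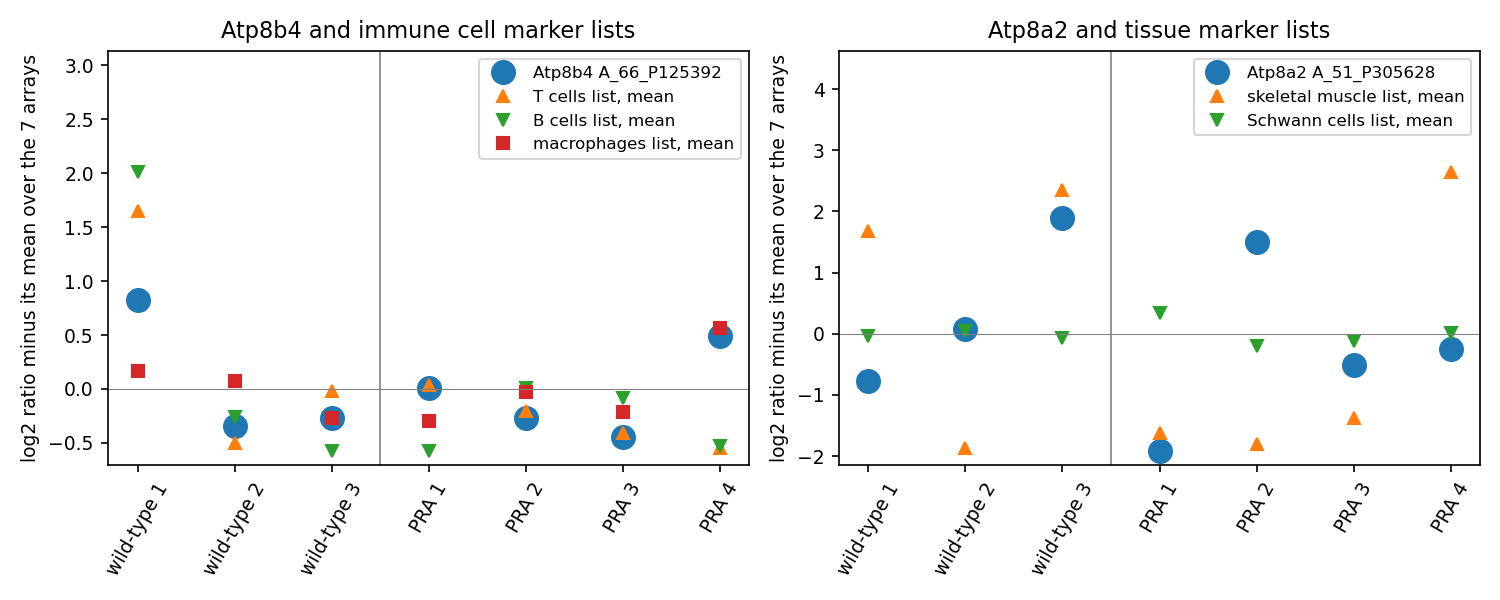
Array-to-array pattern of Atp8b4 beside the T cell, B cell and macrophage lists (left) and of Atp8a2 beside the skeletal muscle and Schwann cell lists (right), each as the log2 ratio minus its own mean over the 7 arrays, so that patterns and not levels are shown. The vertical line parts the 3 wild-type from the 4 PRA transgenic glands. Wild-type replicate 1 is the highest array for Atp8b4 and for both lymphocyte lists, PRA transgenic replicate 4 is the highest for the macrophage list and next highest for Atp8b4, and Atp8a2 is highest in wild-type replicate 3 and PRA transgenic replicate 2.

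Atp8a1, a widely expressed phosphatidylserine flippase, had 4 probes, all compared. The brightest, A_52_P534844 (chr5:68012680-68012739, near the 3′ end of the transcript), read 0.77, 1.09 and 0.62 in wild-type and 1.21, 0.90, 1.05 and 0.81 in PRA transgenic glands. These values overlapped, with a difference of 0.16 (standard error 0.16). Towards the 5′ end, the junction probe A_66_P128448 (chr5:68203391-68204355) read 0.44, 0.54 and 0.35 against 1.20, 0.79, 1.07 and 0.68. Here every transgenic gland was above every wild-type gland, in the ratio and in Cy5 alone, and the difference of 0.49 (standard error 0.16) came to 1.41-fold, short of 1.5-fold. The remaining probes, A_55_P2075294 and A_66_P131919, differed by 0.03 (standard error 0.31) and 0.07 (standard error 0.24), with overlap, so the 4 probes of this gene all had positive differences of unequal size.

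Atp8a2, a flippase known chiefly from nervous tissue and testis, gave the widest scatter among animals. With A_51_P305628 (chr14:60266616-60266675) its log2 ratios were 2.10, 2.97 and 4.77 in wild-type and 0.97, 4.38, 2.37 and 2.63 in PRA transgenic glands. Wild-type replicate 3 and PRA transgenic replicate 2 stood high, at 145.7 and 137.3 Cy5 intensity units, while the other 5 glands lay between 13.6 and 40.3. The difference of -0.70 (standard error 0.89) was smaller than this scatter, was -0.08 in Cy5 alone, and came with a reference signal that was well above background on no array and 0.62 higher on the transgenic ones. A list of 4 Schwann cell genes, all well above background on every array, ran from 2.34 to 2.45 in wild-type and 2.21 to 2.75 in PRA transgenic glands, and was 2.34 and 2.21 in the 2 glands where Atp8a2 was high.

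Skeletal muscle markers ordered the glands in another way. Their list (8 genes, 5 of them well above background on every array, with Ckm, Myh1 and Myh4 the exceptions) was 3.87 in wild-type replicate 3 and -0.29 in PRA transgenic replicate 2. The part of Schwann cell or muscle content in the Atp8a2 values was not tested. The second Atp8a2 probe compared, A_55_P2718910 (chr14:60706111-60706170), is assigned to an Ensembl transcript and varied little, at -0.34, -0.22 and -0.31 against -0.16, -0.40, -0.13 and -0.22. Its difference was 0.07 (standard error 0.12), and the 2 probes of this gene did not share the scatter. The last probe, A_52_P189410, was well above background on no array in either channel. On that probe both channels were higher on the transgenic arrays, Cy5 alone by 0.73 and Cy3 by 0.70 on the log2 scale.

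For Atp9a and Atp11b, 1 probe was past the threshold of p and fold and the other compared probes of the same gene were not. The probes read separate stretches of the transcripts, and the first 30 of the 60 bases of each are printed, from the 5′ end as deposited, because the values differ between them.
Atp9a A_55_P1965416: ggcccgtctgaggtttgtggggtcactgtg
Atp9a A_55_P2166123: ttcaacttctacttcctgcttctcgcctgc
Atp11b A_51_P146505: agtgcaaagggagttttgcatctcatgtcc
Atp11b A_52_P449259: gacaaacatgaaacagctgttagtgtgagt
Atp11b A_65_P19626: actcatttttctacatgaaaactgagtctc

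Atp9a, a flippase of endosomes and the trans-Golgi network, was read near its 5′ end by A_55_P2166123 (chr2:168531722-168531781, position 291 of the transcript) and near its 3′ end by A_55_P1965416 (chr2:168459963-168460022, position 3444). At the 5′ probe the log2 ratios were 0.73, 1.14 and 0.89 in wild-type and 1.77, 1.90, 1.57 and 1.70 in PRA transgenic glands. All transgenic glands were above all wild-type glands, and the difference was 0.82 (standard error 0.15), or 1.76-fold. The Cy5 signals were 154.6, 164.1 and 128.0 against 212.6, 216.3, 169.4 and 222.2 intensity units, the difference in Cy5 alone was 0.67, and both channels were well above background on all arrays.

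At the 3′ probe of Atp9a, whose Cy5 signal ran from 23809 to 51854 intensity units, the picture was different. Its log2 ratios were 3.66, 4.10 and 3.26 in wild-type and 4.17, 3.46, 3.82 and 3.64 in PRA transgenic glands, fully overlapping. The difference was 0.10 (standard error 0.25). Bases of the 60-base probes that were G or C made up 55% at the 5′ probe and 53.3% at the 3′ probe.

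Atp11b, a flippase of endosomes, had 3 probes compared, and 1 of them was lower in transgenic glands. This probe, A_65_P19626 (chr3:35736676-35736735), is assigned in the files to an Ensembl transcript only, not to the RefSeq transcript of the other 2, and read -1.03, -0.82 and -1.40 in wild-type and -2.09, -2.14, -1.35 and -1.91 in PRA transgenic glands. PRA transgenic replicate 3 lay just above wild-type replicate 3, so the ratios overlapped by that pair, while the other 3 transgenic glands were below all wild-type glands. The difference was -0.79 (standard error 0.24), or 1.73-fold. The Cy5 signals were 40.4, 52.2 and 27.2 against 18.1, 13.8, 25.1 and 18.8 intensity units. All counted as well above background, but most transgenic values lay close to the weakest signal so counted on those arrays (12.1 to 15.9), which limits the fold. In Cy5 alone the values were -2.96, -2.76 and -3.40 against -3.95, -4.26, -3.42 and -3.93, without overlap, and differed by -0.85.

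The RefSeq probes of Atp11b showed no such shift. A_51_P146505 (chr3:35754748-35754807, position 4413) read -0.10, -0.48 and -0.64 against -0.42, -1.03, -0.24 and -0.18, a difference of -0.06 (standard error 0.24). A_52_P449259 (chr3:35718904-35718963, position 2364) read 0.19, -0.24 and -0.40 against 0.62, -0.69, 0.25 and 0.49, a difference of 0.32 (standard error 0.33). At both the genotypes overlapped, and PRA transgenic replicate 2 was the lowest of the 7 glands.

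**Figure D4:**
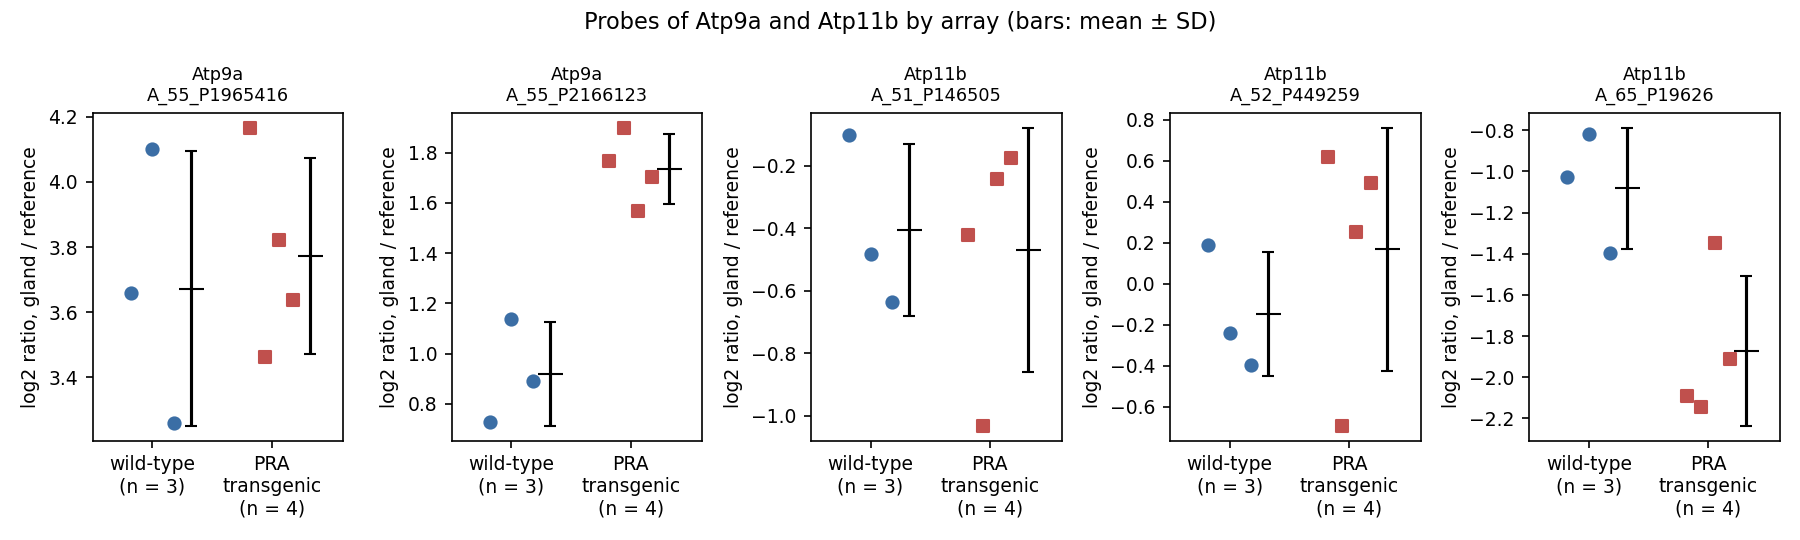
Log2 ratio of gland to reference for each probe of Atp9a and Atp11b that was compared, with wild-type glands (n = 3) as blue circles, PRA transgenic glands (n = 4) as red squares and mean ± SD as bars. Each panel has its own scale. Genotypes are apart at Atp9a A_55_P2166123, nearly so at Atp11b A_65_P19626, and overlap at the other 3 probes.

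Atp11a, a plasma membrane flippase for phosphatidylserine and phosphatidylethanolamine, had small positive differences at its 4 probes on chromosome 8. The probes A_55_P1971074 (chr8:12868669-12868728) and A_52_P373251 (chr8:12868516-12868575) lie side by side and differed by 0.24 (standard error 0.13) and 0.26 (standard error 0.14). For the former the log2 ratios were 0.78, 0.51 and 0.39 in wild-type and 0.87, 0.67, 0.86 and 0.81 in PRA transgenic glands, so that PRA transgenic replicate 2 fell below wild-type replicate 1. The junction probe A_51_P504114 differed by 0.05 (standard error 0.19) and A_55_P2717613 by 0.11 (standard error 0.15). None of the 4 differences reached 1.5-fold, and the genotypes overlapped at each.

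Tmem30a, the subunit that most of these ATPases depend on, had small differences at both of its probes. A_51_P210611 (chr9:79616930-79616989) read 0.38, 0.51 and 0.23 in wild-type and 0.44, 0.23, 0.33 and 0.25 in PRA transgenic glands, with a difference of -0.06 (standard error 0.12). A_55_P2909602 (chr9:79617736-79617795) read 0.43, 0.58 and 0.31 against 1.07, 0.06, 0.48 and 0.61, with a difference of 0.11 (standard error 0.23). The transgenic glands enclosed the wild-type range at the latter, from replicate 2 at the bottom to replicate 1 at the top.

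Against the reference cell lines, 12 of the 20 probes compared were above it on all 7 arrays and 5 were below it on all 7. Those above included both compared Atp9a probes, both of Tmem30a and that of Atp8b1, and those below included the compared probes of Atp8b2 and Atp8b4. For Atp8b1, Atp8a2 A_51_P305628 and Atp8a1 A_66_P131919 no array had a reference signal well above background, so their ratios do not give a measured distance from it.

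Genes outside the set that belong to the same membrane chemistry were compared through lists, each gene by its brightest compared probe. Of 54 such genes 46 could be compared, and 2 passed the threshold (unadjusted p under 0.05 and 1.5-fold), both lower, where 2.59% of all probes did so. None had an adjusted p under 0.05, the lowest being 0.407 by limma, and 3 had an unadjusted p under 0.05, which 9.02% of all probes had. The median difference was -0.08.

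Further flippase genes were closest to the set. Atp8b5, a flippase described in testis, was the only 1 of 5 compared to pass, with log2 ratios of 5.69, 4.67 and 4.12 in wild-type and 3.09, 3.40, 4.01 and 4.36 in PRA transgenic glands. The genotypes overlapped, and the difference of -1.11 (standard error 0.44, limma adjusted p = 0.526) was -0.49 in Cy5 alone and no longer past the threshold there. Its reference signal was well above background on no array, and its other compared probe differed by -0.09. Without wild-type replicate 1 it was -0.68 and it also missed the threshold without wild-type replicate 2, PRA transgenic replicate 1 or PRA transgenic replicate 2.

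Atp9b, the closest relative of Atp9a, had 3 compared probes. At the brightest every transgenic gland was above every wild-type gland, as at 5.42% of all probes. Its difference was 0.21 (standard error 0.10, limma adjusted p = 0.603), below 1.5-fold and not past the threshold. Of the other Atp9b probes, A_55_P1969566 differed by 0.40, also without overlap and below 1.5-fold. A_55_P2738534 differed by -0.10, with overlapping genotypes. The differences of Atp10a, Atp10b and Atp10d were -0.25, -0.91 and -0.49, all with overlapping genotypes and with limma adjusted p-values of 0.787, 0.709 and 0.598. For Atp10b the reference was well above background on 0 arrays and the difference in Cy5 alone was -0.48. It passed the threshold without PRA transgenic replicate 2 (-1.40), and Atp10d did so without wild-type replicate 3 (-0.63). Atp8b3, Tmem30b and Tmem30c were too dim to be compared.

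Scramblases, which let phospholipids cross in both directions and so oppose the flippases, had 12 of 15 genes compared, with 1 lower, none higher and a median of -0.06. The 1 was Ano4, of the anoctamin family of ion channels and scramblases, whose gland signal was well above background in all 3 wild-type glands but not in any of the 4 PRA transgenic glands. Against the weakest signal counted as well above background there, the Ano4 signal was at least 1.35-fold lower in transgenic glands. That bound holds for the main processing only. The fitted difference was -1.56 (limma adjusted p = 0.407), with -1.17 in Cy5 alone and -0.24 with normexp and loess. The reference signal was well above background on no array, and the probe entered the comparison through the wild-type glands only.

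Among ABC lipid transporters, most of which move lipids to the outer leaflet, none of 9 genes compared passed, with a median of -0.13. Their differences were negative for 8 of 9 genes in the ratio, for 6 of 9 in Cy5 alone and for 10 of all 14 compared probes. None of the 9 genes for the synthesis of phosphatidylserine and phosphatidylethanolamine passed, with a median of 0.18. Differences here were positive for 8 of 9 genes in the ratio, for 8 of 9 in Cy5 alone and for 13 of all 17 compared probes. The median over all probes compared was 0.02, and nothing is read from these counts of signs in either list. Receptors and bridging proteins by which phagocytes recognize exposed phosphatidylserine had 11 of 12 genes compared, none past the threshold by its brightest probe and a median of -0.22. Stab2, a scavenger receptor of this list named here after its values were seen, had a second compared probe (A_55_P1974028) past the threshold. Its signal was well above background in all 3 wild-type glands but in none of the transgenic ones, so it entered the comparison through the wild-type glands only. It was at least 10.8-fold lower in transgenic glands, a bound for the main processing only (limma adjusted p = 0.131 for the fitted difference). Its reference was well above background on 4 arrays. The brightest Stab2 probe differed by -0.37 in the ratio (limma adjusted p = 0.708) and by -0.85 in Cy5 alone. By brightest probe, no gene of these 3 lists had an unadjusted p under 0.05, and the lowest limma adjusted p-values were 0.712, 0.666 and 0.574.

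**Figure D5:**
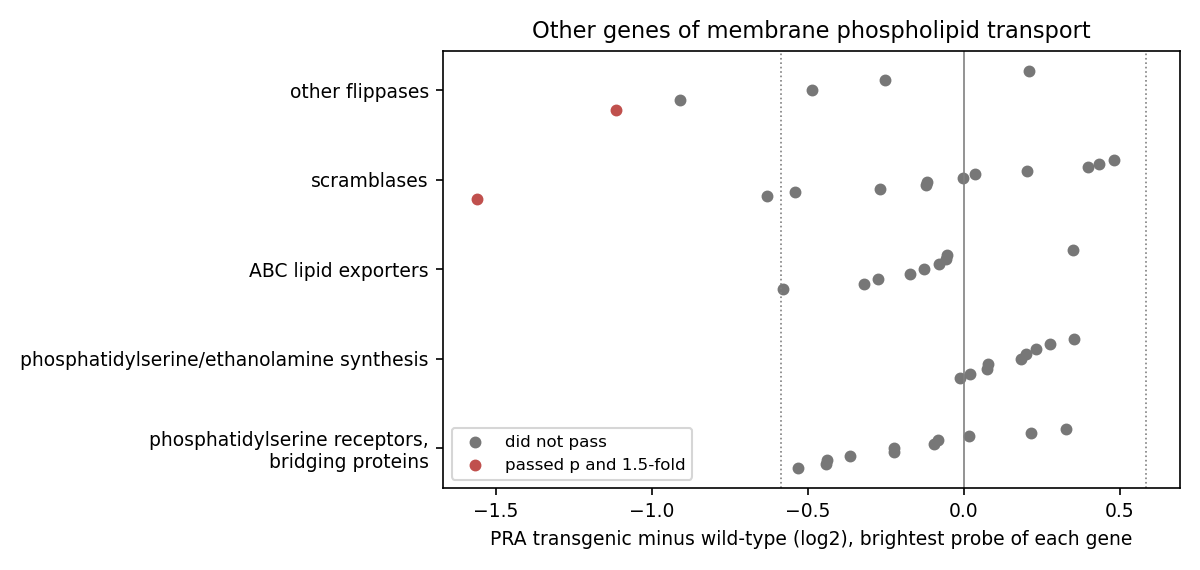
Difference between PRA transgenic (n = 4) and wild-type (n = 3) glands, in log2 units, for the 46 genes of membrane phospholipid transport and synthesis outside the set that could be compared, each as 1 point for its brightest compared probe. Dotted lines mark a 1.5-fold change. The 2 red points, Atp8b5 at -1.11 and Ano4 at -1.56 (a fitted value, with the transgenic signal not well above background), passed the unadjusted p and the fold, and no gene passed in the higher direction.

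Finally, probes were ordered by how closely their profile over the 7 arrays followed that of Atp8b1, as the root mean square difference of log2 ratios after each probe was centered on its mean. The nearest gene was Hdac9, a class IIa histone deacetylase, at 0.132 log2 units, followed by Hyi at 0.211, Cnn3 at 0.233, Klrb1f at 0.235 and Lrp8os2 at 0.25, out of 34247 probes. The measure takes in the genotype difference for which Atp8b1 was picked, as well as the reference channel, so the order is a description only. For Hdac9, with Cy3 well above background on no array, the difference between genotypes was -1.91 in the ratio and -1.08 in Cy5 alone, much as for Atp8b1. Hyi, with Cy3 well above background on all 7 arrays, differed by -1.56 and, in Cy5 alone, by -1.66. Cnn3 differed by -1.60 in the ratio and by 0.13 in Cy5 alone. Klrb1f and Lrp8os2 were well above background in Cy5 on no PRA transgenic array.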

How the data were processed

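Gland RNA (Cy5) from 7 mice, 3 wild-type and 4 PRA transgenic, was hybridized with a common reference (Cy3) on Agilent arrays, 1 per animal and without dye swaps. The authors deposited the scanner output, in which intensity values had been background-subtracted and dye-normalized by Agilent Feature Extraction (version 12.0 per the labels, 11.5.1.1 per the file headers) with flags for spots above background. They also deposited a table of log2 ratios, centered per probe on the median of the 7 arrays. Coordinates are those of the files (mm9), and exon annotation of that build was not used here. The member genes, lists and tests were chosen with earlier results of these data known, and 1 gene of the lists is not reported here.

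Control and outlier spots were dropped, and the log2 ratio of processed Cy5 to Cy3 was averaged over the spots of each probe. The comparison held 34288 of 56605 probes and left out 22317 for which neither genotype had Cy5 well above background on all its arrays. Cy5 alone is log2 Cy5 minus the array's 75th percentile. Differences in Cy3 were taken likewise, as log2 Cy3 minus its own 75th percentile on each array. Genotypes were compared in limma 3.58.1 (lmFit, eBayes; R 4.3.3) over all these probes with Benjamini-Hochberg adjustment, after a check on simulated data. Calls used an unadjusted p under 0.05 with 1.5-fold. The genes named are all members, the further flippases of the lists, list genes past the threshold and the 5 nearest profiles. Names came from the files or RefSeq of GRCm38.p6. The number of arrays limits the precision, and p-values measure the spread between animals on 1 slide. Alternatives were another background correction (normexp, offset 50, then loess), Cy5 alone, quantile normalization, the deposited table, other filters, the methods' t-test, array weights, an intensity trend, leaving out each array, the replicate number as a block, and the median over a gene's probes.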

Additional observations from a re-analysis of the deposited data

How the results depend on the processing

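The difference of Atp8b1 stayed negative under all alternatives that could give it, and was -1.09 in Cy5 alone, -0.54 with normexp and loess, and -1.82 to -1.61 with each array left out. With both channels required to be well above background, its probe was not among those compared. Of the flippase probes, 3 were past the threshold, 0 with normexp and loess, 4 without a filter and 3 to 4 with an array left out. Of the other listed genes, 2 were past it, 0 with both channels required or with normexp and loess, 1 with the methods' t-test, 5 without a filter 1 to 3 with an array left out (1 without PRA transgenic replicate 1) and 3 by the median over a gene's probes, which added Stab2 at -2.38. Of all probes, 1552 were past it, 468 with both channels required, 996 with the t-test, 3367 without a filter, 326 with normexp and loess, and 1382 to 2334 with an array left out (2334 without PRA transgenic replicate 4). Among genes, Atp8a2 and Atp9a were at -0.31 and 0.46 as the median over their probes. Ano4 (-0.24) and Atp8b5 (-0.31) missed the threshold with normexp and loess. The offset of 50 in normexp makes ratios of dim signals smaller by construction. The cause of these shifts was otherwise not tested.

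No pairing of animals by replicate number is stated in the labels. Same-numbered arrays correlated in their deviations from the group means at 0.0997, -0.297 and 0.0362. Differently numbered arrays ranged from -0.301 to 0.381, and with so few arrays these values cannot decide whether animals were paired. With the replicate block, to which PRA transgenic replicate 4 adds nothing, Atp8b1 differed by -1.82, 2 flippase probes, 2 listed genes and 2444 of all probes were past the threshold, and Atp8b5 (-1.33) was not. The slide as a block was not run, since there was 1 slide. Dim signal limits Atp8b1, Atp8a2 A_51_P305628 and Atp8a1 A_66_P131919, whose reference was well above background on no array. Each of these probes entered the comparison through the wild-type glands only. Atp11b A_65_P19626 is limited by dim Cy5 signal in the transgenic glands.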
